A study of Mus musculus with 2 samples.

Results

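The genes of the cytosolic ribosomal proteins were examined in mouse primary hepatocytes, the main cells of liver, grown in vitro. The first group of cells received a small interfering RNA (siRNA) directed at ClpP, which encodes the proteolytic part of a mitochondrial protease, by Lipofectamine transfection; control cells received an siRNA directed at GFP, a jellyfish protein that mouse cells lack. Each group held 1 library of poly-A RNA, so no difference has a replicate and none was tested. The sources used here do not state strain, animal number or age, siRNA dose or harvest time. Members were taken by symbol alone, as large subunit names (Rpl and Rplp) and small subunit names (Rps and Rpsa), leaving out pseudogene symbols and kinases. This gave 81 genes of the 14339 named in the table, 48 of the large subunit and 33 of the small. All 81 had a mean FPKM (fragments counted per transcript length and sequencing depth) of at least 1, as did 11087 genes in all. The measure is the log2 ratio, the value of log2(FPKM + 1) with ClpP siRNA less that with GFP siRNA.

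The cytosolic ribosome reads messenger RNA with its small subunit and joins amino acids in its large subunit, and each ribosomal protein is needed in about equal number. Their messenger RNAs are among the most abundant in any dividing or secreting cell, and in liver they serve the heavy output of plasma proteins. In vertebrates these messages begin with a C followed by a run of C and T, the terminal oligopyrimidine (TOP) tract, through which mTORC1 and the RNA-binding protein Larp1 control their translation and stability. Of the 81 members, 4 are paralogs (Rpl22l1, Rpl7l1, Rps27l and Rps4l). The other 77 encode subunits of the ribosome itself. The symbol rule leaves out Fau, which encodes a ribosomal protein fused to a ubiquitin-like protein, and Gnb2l1, which encodes the scaffold Rack1.

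As facts of the series, the FPKM totals were 535135 in the ClpP siRNA library and 532302 in the GFP siRNA library, and sequencing depth is unknown because the table holds no counts. Clpp itself stood at 9.32 FPKM with ClpP siRNA and 45.1 FPKM with GFP siRNA, a log2 ratio of -2.16. Over all 11087 genes the median log2 ratio was -0.01, 2.04% were at least 2-fold lower and 5.19% at least 2-fold higher. All 7 hepatocyte markers looked for were present, with a summed FPKM of 7133 with ClpP siRNA and 3308 with GFP siRNA, most of it from Alb (6245 with ClpP siRNA and 2952 with GFP siRNA). Of these 7, 5 were at least 2-fold higher with ClpP siRNA, while Apob (log2 ratio -0.32) and Asgr1 (-0.61) were lower. Of 26 markers of macrophages, endothelium, stellate cells and cholangiocytes, 19 passed the FPKM limit, and their summed FPKM was 1198 with ClpP siRNA and 1727 with GFP siRNA (Spp1 alone 870 with ClpP siRNA and 1605 with GFP siRNA). By type, the sums with ClpP siRNA were 232 for macrophages, 13.8 for endothelium, 15.4 for stellate cells and 937 for cholangiocytes. With GFP siRNA they were 38.2 for macrophages, 25.4 for endothelium, 33.9 for stellate cells and 1629 for cholangiocytes. The cholangiocyte sum was lower with ClpP siRNA through Spp1 alone, since Krt19 (50.2 FPKM with ClpP siRNA and 9.58 with GFP siRNA), Sox9 (log2 ratio 0.14) and Krt7 (0.13) were higher. No listed marker was at 0 in either library, as held for every named gene. Adgre1, counted among the 26 markers, was not listed under that symbol. The macrophage markers C1qa, C1qb, C1qc, Lyz2 and Cd5l were below 4 FPKM in both libraries and lower with ClpP siRNA. Their log2 ratios ran from -0.97 for Lyz2 to -0.40 for C1qb. The macrophage sum was higher with ClpP siRNA through Cd68 alone, at 226 FPKM, against 24.9 with GFP siRNA. The part of other cells in the values that follow was not tested, and in bulk RNA fewer cells of a type and less RNA per cell cannot be told apart.

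Nearly all ribosomal protein genes were lower in the ClpP siRNA library, each by a small amount. Of the 81 members, 76 had a log2 ratio below 0, where 50.7% of all genes did, and 5 had a ratio above 0, where 49.3% of all genes did. The median was -0.35, with quartiles of -0.46 and -0.26, against a median of -0.01 and quartiles of -0.24 and 0.25 over all genes, of which 16.6% lay at or below the median of the members. On the linear scale, the FPKM with ClpP siRNA was 78.4% of that with GFP siRNA for the median member, with quartiles of 72.5% and 83.5%. The members lay close together, 63 of 81 within 0.2 of their median. A single member, Rpl22l1, was at least 2-fold lower (2.04% of all genes were), and a single member, Rps27, was at least 2-fold higher (5.19% of all genes were).

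**Figure D1:**
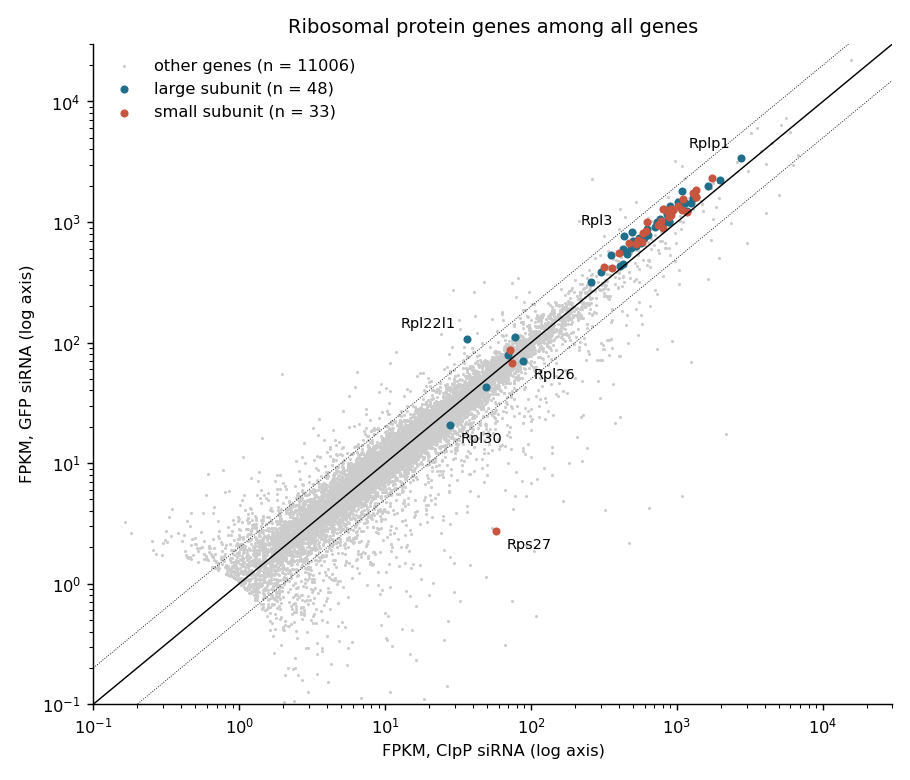
FPKM of each gene with ClpP siRNA (x axis) and GFP siRNA (y axis), both log axes, for 48 large subunit genes, 33 small subunit genes and 11006 other genes of mean FPKM of at least 1. The solid line marks equal values and the dotted lines 2-fold, genes under 0.1 FPKM in a library fall outside the axes, and most ribosomal protein genes sit in a narrow band just above the solid line, with Rps27 far below it.

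Because the members are so abundant, their small ratios add up to a visible difference in their share of the FPKM total. FPKM is counted per transcript length, so this is not their share of the RNA sequenced. Their summed FPKM was 60351 with ClpP siRNA and 78021 with GFP siRNA, which is 11.3% of the FPKM total with ClpP siRNA and 14.7% with GFP siRNA. The median of other abundant genes was near 0. The 699 other genes with a mean FPKM of at least 100 had a median log2 ratio of 0.03 with 337 below 0, and the 310 of these with at most 750 coding bases, short like most ribosomal protein genes, had a median of -0.01 with 157 below 0. With the log2 values of the authors' deposited table, which were quantile-normalized, the median of the members was -0.28 and that of all genes -0.06.

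The most abundant members had ratios like those of the rest. Rplp1, an acidic protein of the stalk that recruits translation factors, had 2756 FPKM with ClpP siRNA and 3374 FPKM with GFP siRNA, a log2 ratio of -0.29. Rpl41, the smallest protein of the ribosome, had 1984 FPKM with ClpP siRNA and 2237 FPKM with GFP siRNA (log2 ratio -0.17). Rps12, of the small subunit head, had 1734 FPKM with ClpP siRNA and 2323 FPKM with GFP siRNA (-0.42). The ratios of these 3 genes lie on both sides of the median of the members, and that of Rpl41 was 0 at the authors' quantile-normalized values. Rplp2, the partner of Rplp1 in the stalk, had 1625 FPKM with ClpP siRNA and 2000 FPKM with GFP siRNA (-0.30). Rps18, which reaches from the head towards the large subunit, had 1356 FPKM with ClpP siRNA and 1831 FPKM with GFP siRNA (-0.43). Rps2, which lies at the entry of the messenger RNA channel, had 1286 FPKM with ClpP siRNA and 1734 FPKM with GFP siRNA (-0.43). By level, the 30 members of at least 1000 mean FPKM had a median log2 ratio of -0.41 and the 34 of 500 to 1000 had -0.38, and all 64 genes of these classes were below 0. The 8 members of 150 to 500 FPKM had -0.31, again all below 0. The 9 members below 150 FPKM differed from this, with a median of 0.14 and 5 of 9 above 0, so that every member with a ratio above 0 belonged to the scarcest class.

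The large and small subunits had similar medians. The 48 large subunit genes had a median log2 ratio of -0.34 (quartiles -0.46 and -0.26, 45 below 0) and the 33 small subunit genes -0.40 (quartiles -0.47 and -0.27, 31 below 0). The medians differed by 0.07, less than the interquartile range of either subunit (0.20 in each), and by -0.01 at the authors' quantile-normalized values.

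**Figure D2:**
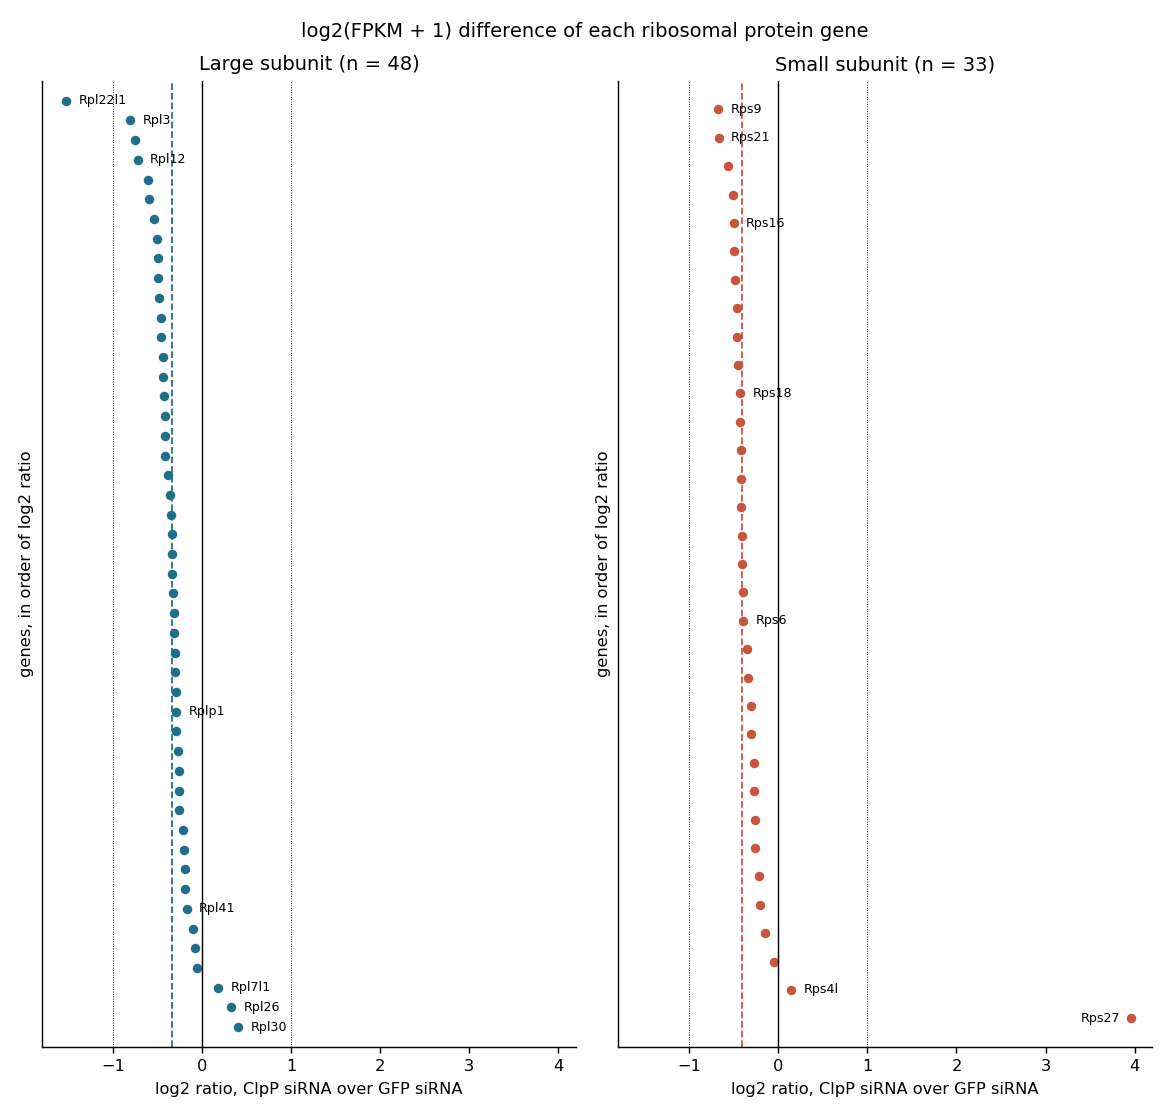
log2 ratio of ClpP siRNA over GFP siRNA for each of the 48 large subunit genes (left) and the 33 small subunit genes (right), 1 point per gene, ordered from lowest (top) to highest (bottom), with some genes named. The dashed lines mark the subunit medians of -0.34 and -0.40 and the dotted lines 2-fold; the points form nearly vertical columns left of 0, apart from Rpl22l1 and Rps27.

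Within functional sites of the large subunit the ratios were uneven. Rpl12, at the base of the stalk where elongation factors bind, had 1088 FPKM with ClpP siRNA and 1797 FPKM with GFP siRNA, a log2 ratio of -0.72. Rplp0, the scaffold that anchors the other stalk proteins, had 1248 FPKM with ClpP siRNA and 1448 FPKM with GFP siRNA (-0.21). All 4 stalk genes were below 0, with Rpl12 well apart from the other 3. At the authors' quantile-normalized values the ratio of Rplp0 was 0 and that of Rplp2 -0.25. Rpl12 (-0.58) was there not well apart from Rplp1 (-0.45). Rpl5 and Rpl11 bind the small ribosomal RNA of the large subunit and, when ribosome assembly is disturbed, the p53 regulator Mdm2. Rpl5 had 354 FPKM with ClpP siRNA and 536 FPKM with GFP siRNA (-0.60), and Rpl11 had 820 FPKM with ClpP siRNA and 983 FPKM with GFP siRNA (-0.26). The 8 genes of the polypeptide exit site had a median of -0.22 with 7 below 0. They ranged from -0.54 for Rpl23a, the docking site of the signal recognition particle, to 0.32 for Rpl26. The value of Rpl26 is uncertain, because summed with its near-identical copy Gm15772, described below, it had -0.19.

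In the small subunit, the 14 genes of the head had a median log2 ratio of -0.42, with all 14 below 0, and the 17 genes of the body and platform had -0.40, with 16 below 0. The lowest ratio among the head genes was the -0.50 of Rps16. Nearest to equal levels among the named large subunit genes was Rpl19, whose protein contacts the small subunit, at 1175 FPKM with ClpP siRNA and 1224 FPKM with GFP siRNA (log2 ratio -0.06). At the authors' quantile-normalized values its ratio was 0.17, so no direction is given for it. Rpl37, also of the large subunit, had 429 FPKM with ClpP siRNA and 452 FPKM with GFP siRNA (-0.08).

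Apart from the paralogs, the lowest ratios were those of Rpl3, Rpl10a, Rpl12, Rps9, Rps21, Rpl10 and Rpl5. Rpl3, whose long finger reaches towards the peptidyl transferase centre, had 435 FPKM with ClpP siRNA and 764 FPKM with GFP siRNA, a log2 ratio of -0.81. Rpl10a, the protein of the mobile stalk near the tRNA exit, had 489 FPKM with ClpP siRNA and 823 FPKM with GFP siRNA (-0.75). Rpl10, which joins late in assembly beside the tRNA sites, had 892 FPKM with ClpP siRNA and 1357 FPKM with GFP siRNA (-0.60). These 3 large subunit genes stood at 56.9%, 59.4% and 65.8% of their FPKM with GFP siRNA. Rps9, which lies at the entry of the messenger RNA channel, had 804 FPKM with ClpP siRNA and 1281 FPKM with GFP siRNA (-0.67). Rps21 had 627 FPKM with ClpP siRNA and 999 FPKM with GFP siRNA (-0.67). At the authors' quantile-normalized values the ratios were -0.38 for Rpl10, -0.53 for Rps9 and -0.56 for Rps21, and other members, such as Rpl22 (-0.57) and Rpl14 (-0.57), lay lower. By coding length, from matched GENCODE transcripts of 80 members, the longest 27 had a median of -0.41, the middle 26 -0.35 and the shortest 27 -0.30. Across the 80 genes, which share both libraries and are not independent, Spearman's rho of log2 ratio and coding length was -0.20.

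The gene furthest below the others was a paralog. Rpl22l1 encodes a close relative of Rpl22, an RNA-binding protein of the large subunit that can take its place, and in mouse Rpl22 is known to repress Rpl22l1. Rpl22l1 had 36.2 FPKM with ClpP siRNA and 107 FPKM with GFP siRNA, a log2 ratio of -1.53, while Rpl22 had 77.9 FPKM with ClpP siRNA and 110 FPKM with GFP siRNA (-0.50). Both messages were lower with ClpP siRNA, Rpl22l1 by more, so Rpl22l1 held 31.7% of the FPKM of the pair with ClpP siRNA and 49.1% with GFP siRNA. In the authors' deposited table the signed fold change was -3.09 for Rpl22l1 and -1.49 for Rpl22. Their coding sequences match at 262 of 368 aligned bases (71.2%). The first 60 bases that align without a gap are shown to let their difference be seen, from base 37 of the Rpl22 coding sequence and base 22 of that of Rpl22l1, with the 22 differing bases in capitals (GENCODE M21).
Rpl22: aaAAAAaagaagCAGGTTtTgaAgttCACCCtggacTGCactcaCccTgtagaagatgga
Rpl22l1: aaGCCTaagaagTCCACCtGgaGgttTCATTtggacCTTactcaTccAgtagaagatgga

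Other paralogs had ratios nearer 0. Rpl7l1, a relative of Rpl7 that works in ribosome assembly, had 49.1 FPKM with ClpP siRNA and 43.1 FPKM with GFP siRNA (log2 ratio 0.18), while Rpl7 had 879 FPKM with ClpP siRNA and 1007 FPKM with GFP siRNA (-0.20). Rps27l, a p53-inducible relative of Rps27, had 359 FPKM with ClpP siRNA and 414 FPKM with GFP siRNA (-0.21). Rps4l, listed with a non-coding accession, had 74.3 FPKM with ClpP siRNA and 67.3 FPKM with GFP siRNA (0.14), while Rps4x had 880 FPKM with ClpP siRNA and 1165 FPKM with GFP siRNA (-0.40). The paralogs thus had no common direction. Rpl36a and its retrogene Rpl36al, which the symbol rule leaves out, match at 282 of 321 coding bases. Rpl36a had 626 FPKM with ClpP siRNA and 872 FPKM with GFP siRNA (-0.48), and Rpl36al had 393 FPKM with ClpP siRNA and 421 FPKM with GFP siRNA (-0.10). Rpl3l, Rpl10l and Rpl39l were not analysed here.

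The other 3 members above 0 were subunit genes with a near-identical copy elsewhere in the genome that carried nearly all of the FPKM. The copies were found as listed genes whose GENCODE transcripts hold at least 50% of the 31-letter words of a member's coding sequence, a search made after the values were seen. Rps27, of the small subunit platform, had 57.2 FPKM with ClpP siRNA and 2.75 FPKM with GFP siRNA, a log2 ratio of 3.96. With so low a level in GFP siRNA cells the ratio depends on the pseudocount, at 4.33 with 0.1 and 3.005 with 5. Its copy Rps27rt had 633 FPKM with ClpP siRNA and 1076 FPKM with GFP siRNA (-0.76). The gene on chromosome 3 and the copy on chromosome 9 have the same coding sequence, 255 of 255 bases, which is printed once for both because no read inside it can be assigned to either.
Rps27 and Rps27rt: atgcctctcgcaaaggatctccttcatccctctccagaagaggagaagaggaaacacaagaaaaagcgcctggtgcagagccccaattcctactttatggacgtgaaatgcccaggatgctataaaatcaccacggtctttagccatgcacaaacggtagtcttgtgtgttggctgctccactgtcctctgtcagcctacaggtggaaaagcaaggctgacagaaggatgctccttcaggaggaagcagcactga

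Summed over both genes, Rps27 and Rps27rt had 690 FPKM with ClpP siRNA and 1079 FPKM with GFP siRNA, a log2 ratio of -0.64, in the range of the other members. Rps27 took 8.28% of that sum with ClpP siRNA and 0.254% with GFP siRNA. By contrast Rps27 and its paralog Rps27l, which match at 194 of 255 coding bases, differ at 18 of their first 60 bases, shown here in capitals.
Rps27: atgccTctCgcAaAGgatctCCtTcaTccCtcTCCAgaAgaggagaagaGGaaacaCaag
Rps27l: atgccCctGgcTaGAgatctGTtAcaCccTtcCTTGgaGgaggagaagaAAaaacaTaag

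Rpl30, Rpl26 and Rpl34 showed the same arrangement. Rpl30 had 27.7 FPKM with ClpP siRNA and 20.7 FPKM with GFP siRNA (log2 ratio 0.41), and its copy Gm12191 had 894 FPKM with ClpP siRNA and 1071 FPKM with GFP siRNA (-0.26). Rpl26, which sits near the peptide exit, had 88.3 FPKM with ClpP siRNA and 70.4 FPKM with GFP siRNA (0.32), and its copy Gm15772 had 1272 FPKM with ClpP siRNA and 1487 FPKM with GFP siRNA (-0.22). Rpl34 had 69.1 FPKM with ClpP siRNA and 79.0 FPKM with GFP siRNA (-0.19), and its copy Rpl34-ps1 had 816 FPKM with ClpP siRNA and 1044 FPKM with GFP siRNA (-0.35). In each case the scarce gene and the abundant copy differ at 1 or 2 bases of the whole coding sequence. The sums with the copy had log2 ratios of -0.24 for Rpl30, -0.19 for Rpl26 and -0.34 for Rpl34. With every member summed with its listed copies, 79 of 81 members were below 0, the exceptions being Rpl7l1 and Rps4l. No source used here says how reads were divided between such copies, so the level of a single gene of a pair, and the ratio of Rps27 above all, are uncertain.

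Little separates each gene from its copy: Rpl30 (chromosome 15) and Gm12191 (chromosome 11) differ at 1 of 348 coding bases, Rpl26 (chromosome 11) and Gm15772 (chromosome 5) at 2 of 438, and Rpl34 (chromosome 3) and Rpl34-ps1 (chromosome 6) at 2 of 354. For Rpl26 and Rpl34, 60 bases that hold a differing base, in capitals, show this.
Rpl26: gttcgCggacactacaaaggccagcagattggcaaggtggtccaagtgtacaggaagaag
Gm15772: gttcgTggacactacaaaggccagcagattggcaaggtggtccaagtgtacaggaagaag
Rpl34: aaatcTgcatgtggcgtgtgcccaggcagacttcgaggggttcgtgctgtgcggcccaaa
Rpl34-ps1: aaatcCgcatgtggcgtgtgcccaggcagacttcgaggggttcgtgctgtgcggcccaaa

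**Figure D3:**
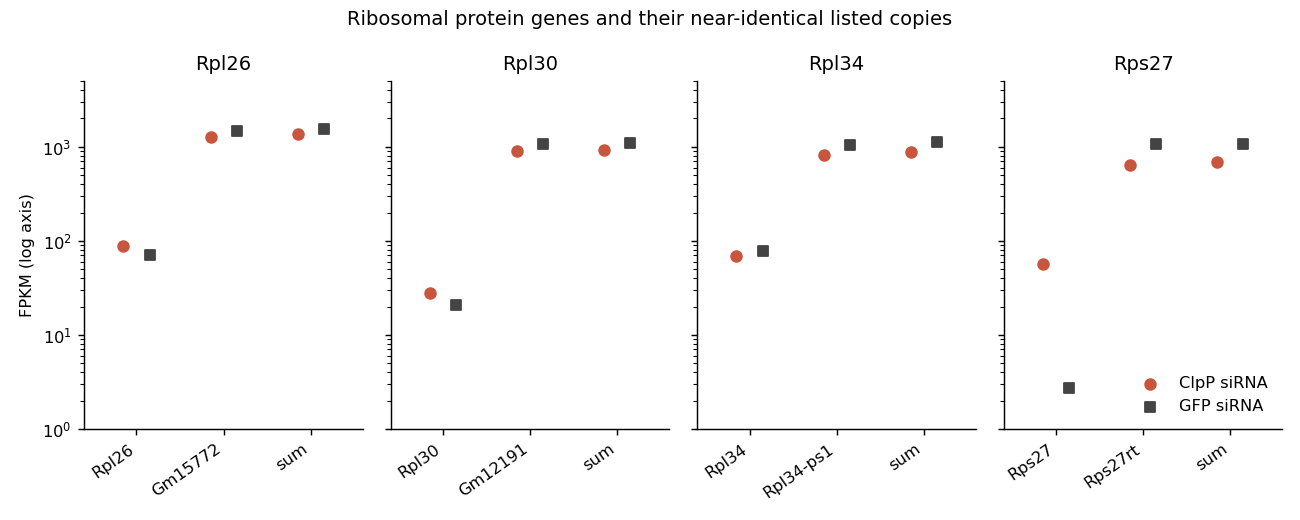
FPKM (log axis) of Rpl26, Rpl30, Rpl34 and Rps27, of the listed copy of each and of their sum, with ClpP siRNA (circles, left) and GFP siRNA (squares, right), 1 library each. In every panel the copy carries most of the sum and the sum is lower with ClpP siRNA, while the gene itself is higher with ClpP siRNA in 3 panels.

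Copies of this kind are common in this family. Of the 80 members with a matched coding sequence, 69 had at least 1 annotated gene or pseudogene in GENCODE sharing that many words, and 10 had such a copy listed in the table. Apart from the 4 abundant copies above, the listed ones were at most 33.8 FPKM with ClpP siRNA and 29.9 FPKM with GFP siRNA (BC004004, a copy of Rpl21). Rps15a, another scarce member, had 71.5 FPKM with ClpP siRNA and 86.3 FPKM with GFP siRNA (log2 ratio -0.27), and its listed copies Rps15a-ps4 and Rps15a-ps6 were both below 2 FPKM. Of the rows with pseudogene symbols, Rpl31-ps12 had 4.66 FPKM with ClpP siRNA and 6.04 FPKM with GFP siRNA, Rps19-ps3 had 2.33 FPKM with ClpP siRNA and 1.31 FPKM with GFP siRNA, and Rplp2-ps1 did not reach a mean of 1 FPKM.

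The TOP letters were looked for at the listed starts of the ribosomal protein genes. RefSeq promoters (GRCm38.p6) were matched for 60 of 81 members. A C within 5 bases of a listed start, followed by at least 4 letters that are C or T, was found for 29 of these 60 (48.3%), against 23.8% of the 8930 matched genes of mean FPKM of at least 1 and 21.2% of all 27025 genes with a promoter. The 30 bases from 10 before the start are shown for a gene of low ratio, Rpl12, for Rps9, for Rps6, the substrate of S6 kinase, for Rplp2 and for Rpl22l1 and Rps27, with the pyrimidine run in capitals.
Rpl12, chr2:32961702-32961731, plus strand: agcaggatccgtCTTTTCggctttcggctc
Rps9, chr7:3704031-3704060, plus strand: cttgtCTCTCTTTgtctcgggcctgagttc
Rps6, chr4:86857348-86857377, minus strand: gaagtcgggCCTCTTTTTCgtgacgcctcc
Rplp2, chr7:141447641-141447670, plus strand: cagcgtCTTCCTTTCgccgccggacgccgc
Rpl22l1, chr3:28805498-28805527, plus strand: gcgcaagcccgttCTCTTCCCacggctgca
Rps27, chr3:90213629-90213658, minus strand: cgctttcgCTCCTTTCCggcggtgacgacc

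The run was present in genes across the whole range of log2 ratios. The 29 members with these letters had a median log2 ratio of -0.40, with 28 below 0, and the 31 with a listed start without them -0.41, with 29 below 0. The starts used in these cells were not measured, so a member without the letters at its listed start may still carry the tract. The 2 medians therefore do not compare messages with and without a TOP tract, and its bearing on the ratio was not tested. Of the other letters searched over the 300 bases of each promoter on both strands, GGAAG was in 55 of 60 members (91.7%) and in 79.7% of the matched genes of mean FPKM of at least 1, GGGCGG in 63.3% of members and 69.5% of those genes, and ATGGCGGC in 6.67% of members and 6.17% of those genes. GGAAG read on the other strand is CTTCC, which can lie inside a pyrimidine run, so its count can overlap that of the TOP letters. TATA between 40 and 20 bases before the start was in 7 of 60 members (11.7%) and in 3.72% of those genes.

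Other messages of the translation apparatus also had a median below 0, though nearer to it. The 24 listed genes known to carry a TOP tract, mostly elongation and initiation factors, had a median log2 ratio of -0.23. Of these 24, 22 were below 0 (50.7% of all genes were). In all, 0 were past 2-fold in either direction, where 2.04% of all genes were lower and 5.19% higher. Eef1b2, an exchange factor of elongation, had 199 FPKM with ClpP siRNA and 327 FPKM with GFP siRNA (-0.71). Eif4b, a helper of initiation, had 93.6 FPKM with ClpP siRNA and 138 FPKM with GFP siRNA (-0.55), and Npm1, a nucleolar chaperone, had 348 FPKM with ClpP siRNA and 510 FPKM with GFP siRNA (-0.55). Fau and Gnb2l1, left out by the symbol rule, followed the members in sign. Gnb2l1 had 1000 FPKM with ClpP siRNA and 1357 FPKM with GFP siRNA (-0.44). Fau had 774 FPKM with ClpP siRNA and 831 FPKM with GFP siRNA (-0.10).

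Among the genes of the machinery that builds ribosomes, the assembly factors had a median below 0, nearer to it than the ribosomal proteins. The genes of RNA polymerase I had a median near that of all genes. The 83 assembly factors had a median log2 ratio of -0.12, with 57 below 0 (68.7%, where 50.7% of all genes were) and 0 past 2-fold in either direction (2.04% of all genes were lower and 5.19% higher). Gnl3 (nucleostemin), a nucleolar GTPase, had 23.1 FPKM with ClpP siRNA and 40.9 FPKM with GFP siRNA (-0.80), while Las1l, which takes part in cutting the ribosomal RNA precursor, had 57.3 FPKM with ClpP siRNA and 31.04 FPKM with GFP siRNA (0.86). Zfp622, a late assembly factor of the large subunit, had 19.0 FPKM with ClpP siRNA and 32.0 FPKM with GFP siRNA (-0.72). The 15 genes of RNA polymerase I, which makes the ribosomal RNA, had a median of -0.03, beside -0.01 over all genes. Of these 15, 8 were below 0 (53.3%, where 50.7% of all genes were). The largest ratios in size there were those of Taf1d (-0.68), Ubtf (-0.52) and Polr1e (-0.42).

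The regulators of TOP messages had no common direction. The 29 genes were those of mTORC1, its inputs and its TOP effectors, listed together with Myc. Their median log2 ratio was -0.01, as was that of all genes. Of these 29, 18 were below 0 (62.1%, where 50.7% of all genes were). In all, 0 were past 2-fold, where 2.04% of all genes were lower and 5.19% higher. Myc, a transcription factor that drives ribosome production, had 29.4 FPKM with ClpP siRNA and 59.7 FPKM with GFP siRNA (-0.997, just short of 2-fold). Rragd, a GTPase that brings mTORC1 to the lysosome, had 4.76 FPKM with ClpP siRNA and 8.58 FPKM with GFP siRNA (-0.73), and Ddit4, an inhibitor of mTORC1, had 16.4 FPKM with ClpP siRNA and 26.6 FPKM with GFP siRNA (-0.67).

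The genes of the mitochondrial ribosome, in the organelle where ClpP works, had a median above 0. The 76 mitochondrial ribosomal protein genes had a median log2 ratio of 0.12, with 27 below 0 (35.5%, where 50.7% of all genes were) and 0 past 2-fold (2.04% of all genes were lower and 5.19% higher), and their summed FPKM was 3130 with ClpP siRNA and 2985 with GFP siRNA. The ratios largest in size were those of Mrpl30 (0.67), Mrpl46 (0.66) and Mrpl34 (-0.61). In the same comparison the 52 genes of an interferon response list had a median of 2.74 with 51 at least 2-fold higher, and their summed FPKM was 14835 with ClpP siRNA and 2397 with GFP siRNA. Its highest ratios were those of Ifit3 (7.42), Oas3 (6.15) and Rsad2 (5.97). With each library scaled to its sum without that list, the ribosomal protein genes had a median of -0.32, with 76 below 0, and all genes a median of 0.02.

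**Figure D4:**
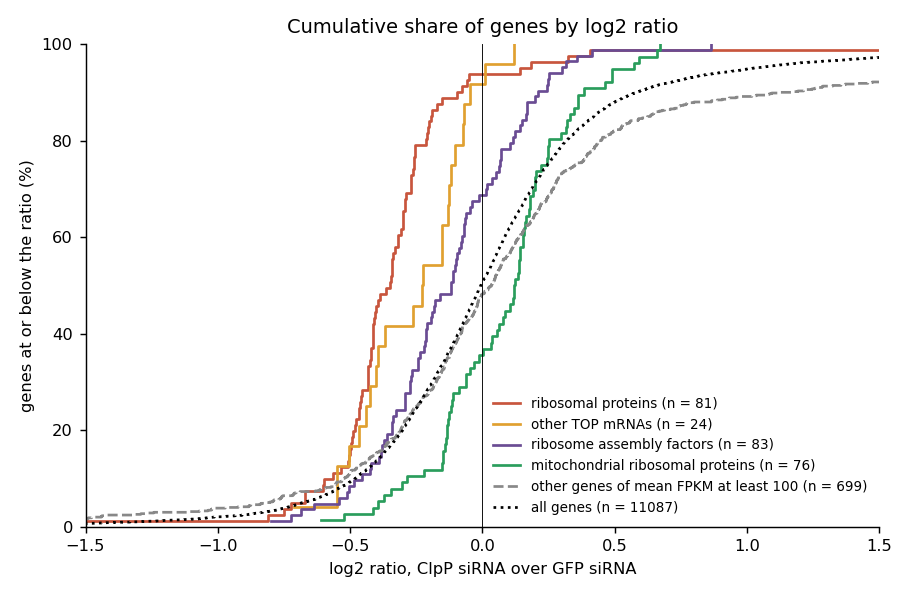
Cumulative percentage of genes (y axis) at or below each log2 ratio of ClpP siRNA over GFP siRNA (x axis) for 81 ribosomal protein genes, 24 other TOP messages, 83 ribosome assembly factors, 76 mitochondrial ribosomal protein genes, 699 other genes of mean FPKM of at least 100 and all 11087 genes; ratios past 1.5 in size are outside the axis. The curve of the ribosomal protein genes climbs steeply left of 0 (median -0.35), that of the other TOP messages lies between it and all genes (-0.23), and that of the mitochondrial ribosomal proteins lies to the right (0.12).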

How the data were processed

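The authors deposited 1 table with FPKM for each of the 2 libraries, per the file headers, keyed by NCBI gene. It also holds log2 values deposited by the authors, which are log2(FPKM + 1) after quantile normalization, and a deposited signed fold change, read here as a score and negative where the ClpP siRNA library is lower. The fourth kind, a score per gene (the geometric mean of the log2 columns, per the file headers), was not used. The submitters' processing notes name STAR 2.4.0f1, Cufflinks 2.2.1, TopHat2 2.0.13, Bowtie2 2.2.3, Trimmomatic 0.32 and FastQC 0.10.0; their roles and the genome build are not given in the sources used here. The column of the ClpP siRNA library is an abbreviation read from its name alone. The 7 of 14346 rows without a gene symbol were dropped (0.0335% of FPKM with ClpP siRNA, 0.0475% with GFP siRNA). No listed gene was at 0, and depth is unknown.

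Log2 ratios used a pseudocount of 1, which understates the change of scarce genes, and a mean FPKM of at least 1. With 1 library per group no test was made; 2-fold is a rule of size. The procedure was tested on simulated data. Named members were Clpp, the 8 lowest and 8 highest ratios, the 6 most abundant, paralogs, the stalk and 5S genes, and the scarcest 4; in each related list, the 3 largest ratios. Other genes, such as Rpl23a, Rps16, Rps6 and Rps15a, were named after their values were seen. Some results that the rule names are not reported here. Members and lists were chosen with earlier results of these data known. Promoters came from RefSeq (GRCm38.p6) and coding sequences from GENCODE M21, matched by RefSeq accession or gene ID (pandas 2.3.3, Biopython 1.88, Python 3.11.15).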

Additional observations from a re-analysis of the deposited data

How the results depend on the processing

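The summary results were recomputed under 13 alternatives, of which summing members with their listed copies was added after the data were seen. The median log2 ratio of the members stayed between -0.43 and -0.28 and the number below 0 between 71 and 79; 87 of 91 recomputed summary values moved by less than 0.1 (medians) or 1.5 times (counts). The count of 71 is that at the authors' quantile-normalized values, where the median of the small subunit was -0.28, and the difference of large minus small subunit medians ranged from -0.01 to 0.07. Without the paralogs 0 members were at least 2-fold lower. Without Rps27, or with members summed with their listed copies, 0 were at least 2-fold higher, and the ratio of Rps27 turned to -0.64 when it was summed with Rps27rt. For the 30 named members, 282 recomputed ratios kept their place, and 2, both of Rps27, reversed. For Rpl22l1 and Rps27 keeping place meant staying past 2-fold in the same direction, whatever the shift. The ratio of Rps27, where not reversed, ran from 3.005 (pseudocount 5) to 4.33 (pseudocount 0.1). For the other named members it meant a shift of less than 0.1, and 17 of their ratios moved by 0.1 or more. The median of all genes stayed between -0.07 and 0.02. Over all genes, 226 were at least 2-fold lower and 575 higher, against 357 lower and 732 higher with a pseudocount of 0.1, 89 and 327 with 5, and 108 and 300 at a mean FPKM of at least 10. No paired analysis was possible because each group held 1 library, and no replicate could be left out for the same reason. The unknown depth limits the scarce members most, Rps27 and Rpl30 among them.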
